A study of Homo sapiens with 48 samples.

Results

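KLHDC7B, DHRS2 and C2CD4A are 3 genes picked because their change with insulin-like growth factor I (IGF-I) differed between breast cancer cells carrying IRS-1 and cells carrying IRS-2. They were followed through all of their probe sets that the array's annotation assigns to a single gene symbol, 5 of the 54675 probe sets on the Affymetrix HG-U133 Plus 2.0 array, which covers 19775 genes in this way: 2 for KLHDC7B, 2 for DHRS2 and 1 for C2CD4A. The cells were sublines of T47D-YA, a variant of the T47D breast cancer line that lacks IRS proteins, and each subline is a single clone. Clones #10 and #20 were labelled as expressing human IRS-1 and clones #1 and #6 as expressing human IRS-2, while the promoter that drives the adaptor gene is not given in the sources used here. Cultures spent 24 h in medium free of serum (SFM) before they received SFM with FN (as the labels write it), together with IGF-I or, as controls, without it, and RNA was taken after 24 h or 4 h. The 4 clones, 2 treatments and 2 times made 16 groups of 3 arrays, 48 arrays in all. Whether the 3 arrays of a group came from separate cultures is not stated, so that errors and p-values below measure the spread between arrays, which may be technical.

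IGF-I binds a receptor tyrosine kinase, and the insulin receptor substrates IRS-1 and IRS-2 are the adaptors that dock to the activated receptor and pass the signal to the PI3K and MAP kinase pathways. KLHDC7B belongs to the kelch domain-containing proteins, whose kelch repeats fold into a propeller that binds other proteins, and it is known as a gene with raised expression in breast tumors. DHRS2 (also called HEP27) is a short-chain dehydrogenase that reduces dicarbonyl compounds, has been reported to bind MDM2 and stabilize p53, and is a well-known transcriptional target of histone deacetylase inhibitors. C2CD4A encodes a nuclear C2 domain protein first described as a gene induced by inflammatory cytokines in endothelial cells, and it lies beside its paralog C2CD4B in a region linked to type 2 diabetes.

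The 250 bases before the annotated start of each gene are shown because they are the proximal promoter of the genes whose RNA was measured. They come from RefSeq on the GRCh38.p14 build, and all 3 genes lie on the plus strand: KLHDC7B at chr22:50545649-50545898, DHRS2 at chr14:23629865-23630114 and C2CD4A at chr15:62066727-62066976. Capitals mark matches to the motifs described after the sequences.
KLHDC7B: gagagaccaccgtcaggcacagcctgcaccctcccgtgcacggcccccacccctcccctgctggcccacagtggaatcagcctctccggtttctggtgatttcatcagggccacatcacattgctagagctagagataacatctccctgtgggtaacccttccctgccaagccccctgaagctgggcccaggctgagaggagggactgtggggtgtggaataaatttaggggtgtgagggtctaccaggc
DHRS2: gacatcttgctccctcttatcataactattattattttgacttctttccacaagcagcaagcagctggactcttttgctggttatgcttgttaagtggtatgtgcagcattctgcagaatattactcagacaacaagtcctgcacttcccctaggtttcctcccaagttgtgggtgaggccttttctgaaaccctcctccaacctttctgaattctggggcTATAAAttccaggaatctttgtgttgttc
C2CD4A: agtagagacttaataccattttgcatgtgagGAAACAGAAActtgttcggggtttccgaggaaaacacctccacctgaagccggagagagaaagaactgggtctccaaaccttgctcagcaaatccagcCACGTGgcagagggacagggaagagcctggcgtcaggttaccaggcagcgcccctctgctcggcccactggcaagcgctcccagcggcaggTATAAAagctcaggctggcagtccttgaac
Both strands were searched for 6 motifs: the TATA box TATAAA, the E-box CACGTG, the AP-1 site TGANTCA, the cyclic AMP response element TGACGTCA, the forkhead site GTAAACA and the interferon-stimulated response element (GAAA, any 2 bases, GAAA). The TATA box stood 29 to 24 bases before the start of DHRS2 and 30 to 25 bases before the start of C2CD4A, a motif held by 11.13% of 27305 windows of this length. The C2CD4A window also held an E-box, 121 to 116 bases before the start (6.49% of windows), and an interferon-stimulated response element, 219 to 210 bases before it (3.07% of windows). None of the 6 motifs matched in the KLHDC7B window, and none of the AP-1 (6.6% of windows), cyclic AMP (1.77%) or forkhead (2.98%) motifs matched in any of the 3. A match describes the letters and does not show a bound site.

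The values are log2 expression as deposited, spanning 3.13 to 15.36, with array medians of 7.39 to 7.51 and correlations of 0.994 to 0.998 between arrays of a group. Of 9 luminal breast epithelial markers, 8 lay at or above the 90th percentile of mean level (KRT18 at 100, ESR1 at 90.1), with TFF1 at 55.6, whereas the 12 measured markers of basal, fibroblast, leukocyte and endothelial cells lay between 13.2 (CDH5) and 86.9 (COL1A1). The labels were not borne out by the adaptor genes' own probe sets: comparing the clones labelled IRS-1 with those labelled IRS-2, an IRS1 probe set (204686_at) was lower by 5.00-fold, and for the remaining 4 probe sets of IRS1 and IRS2 no log2 difference exceeded 0.41. It is unknown if these probe sets match the transferred sequences, so clones are named as labelled and every direction between isoforms rests on those labels. The log2 difference of 3' over 5' ACTB signal, a measure of RNA integrity, was 0.16 to 0.25 in IRS-1 groups and 0.09 to 0.16 in IRS-2 groups. It was also lower with IGF-I than in SFM in each of the 8 pairs of groups (for example 0.16 against 0.19 in #20 and 0.11 against 0.16 in #1 at 24 h), while that of GAPDH (-0.17 to -0.02) was lower with IGF-I in 5 of the 8. Its part in the differences between isoforms and treatments was not tested.

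KLHDC7B was higher with IGF-I at 24 h in IRS-1 clone #20, far less so in IRS-1 clone #10, and hardly at all in the IRS-2 clones. In clone #20 at 24 h its probe set 236285_at stood at 9.79, 9.89 and 9.84 log2 on the IGF-I arrays, against 7.98, 8.02 and 8.22 on the SFM arrays. These 3 IGF-I arrays were the highest of all 48, and the difference was 1.77 (SE 0.082), or 3.41-fold. In clone #10 at 24 h the values were 7.83, 7.89 and 7.90 with IGF-I, against 7.55, 7.63 and 7.56 in SFM, a difference of 0.29 (SE 0.082). The groups of clone #10 did not overlap, but the difference was 1.23-fold. In the IRS-2 clones at 24 h the arrays overlapped, with differences of 0.09 in #1 (7.49, 7.28 and 7.24 with IGF-I, against 7.24, 7.33 and 7.18 in SFM) and -0.02 in #6 (7.59, 7.60 and 7.57 with IGF-I, against 7.49, 7.78 and 7.56 in SFM). At 4 h the difference was -0.00 in #10, 0.11 in #20, 0.06 in #1 and 0.08 in #6. The second KLHDC7B probe set, 1552639_at, was also highest with IGF-I in clone #20 at 24 h, with a smaller difference. In clone #20 at 24 h it read 8.68, 8.80 and 8.88 with IGF-I, against 7.99, 7.88 and 7.93 in SFM, a difference of 0.86 (SE 0.080). In clone #10 its difference was 0.31, with no overlap, and in the IRS-2 clones it was -0.04 in #1 and 0.09 in #6. At 4 h it was 0.02 in #10, 0.19 in #20, 0.14 in #1 and 0.17 in #6, and in #20 and #1 every IGF-I array stood above every SFM array, which was not so for 236285_at. The 2 probe sets of KLHDC7B thus share the clone and time of the largest difference but not its size.

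DHRS2 was higher with IGF-I at 24 h in both IRS-1 clones. For probe set 214079_at, clone #10 read 10.38, 10.25 and 10.26 log2 with IGF-I, against 9.50, 9.64 and 9.71 in SFM, a difference of 0.68 (SE 0.073, 1.6-fold). Clone #20 read 9.90, 9.95 and 9.93 with IGF-I, against 8.89, 8.98 and 9.19 in SFM, a difference of 0.90 (SE 0.073, 1.87-fold). In both clones every IGF-I array stood above every SFM array. In IRS-2 clone #1 the arrays were also apart, at 9.54, 9.64 and 9.68 with IGF-I, against 9.49, 9.40 and 9.34 in SFM, but the difference was only 0.21 (SE 0.073). In IRS-2 clone #6 they overlapped at a much higher level, 12.34, 12.27 and 12.22 with IGF-I, against 12.20, 12.33 and 12.32 in SFM, a difference of -0.01. At 4 h the differences were 0.03 in #10, -0.14 in #20, -0.11 in #1 and -0.22 in #6, and only in #6 did the arrays separate, with IGF-I at 12.38, 12.35 and 12.51, against 12.59, 12.66 and 12.64 in SFM. The other DHRS2 probe set, 206463_s_at, followed the same pattern with smaller values, 0.48 in #10, 0.56 in #20, 0.12 in #1 and -0.00 in #6 at 24 h. By this probe set both IRS-1 clones stayed under 1.5-fold.

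C2CD4A was higher with IGF-I at 4 h in both IRS-2 clones, and its difference was at most 0.11 in every other clone and time. In clone #1 at 4 h it stood at 10.51, 10.53 and 10.38 log2 with IGF-I, against 9.87, 10.00 and 10.02 in SFM, a difference of 0.51 (SE 0.090, 1.42-fold). In clone #6 at 4 h it stood at 10.00, 9.76 and 9.91 with IGF-I, against 9.09, 9.27 and 9.15 in SFM, a difference of 0.72 (SE 0.090, 1.65-fold). The arrays did not overlap in either IRS-2 clone. In the IRS-1 clones at 4 h they did: the difference was -0.02 in #10 (7.17, 7.27 and 7.25 with IGF-I, against 7.46, 6.98 and 7.31 in SFM) and -0.08 in #20 (9.03, 9.13 and 8.91 with IGF-I, against 8.93, 9.06 and 9.33 in SFM). In #10 these levels lay near or under the array medians (7.39 to 7.51), and whether the gene was detected there is unknown. The lack of a difference in the IRS-1 clones at 4 h thus rests mainly on #20. At 24 h the differences were 0.11 in #10, -0.06 in #20, -0.10 in #1 and -0.01 in #6. The higher level with IGF-I seen at 4 h in the IRS-2 clones was thus not seen at 24 h, when SFM arrays had reached 10.68, 10.46 and 10.61 in #1 and 10.32, 10.36 and 10.38 in #6.

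**Figure D1:**
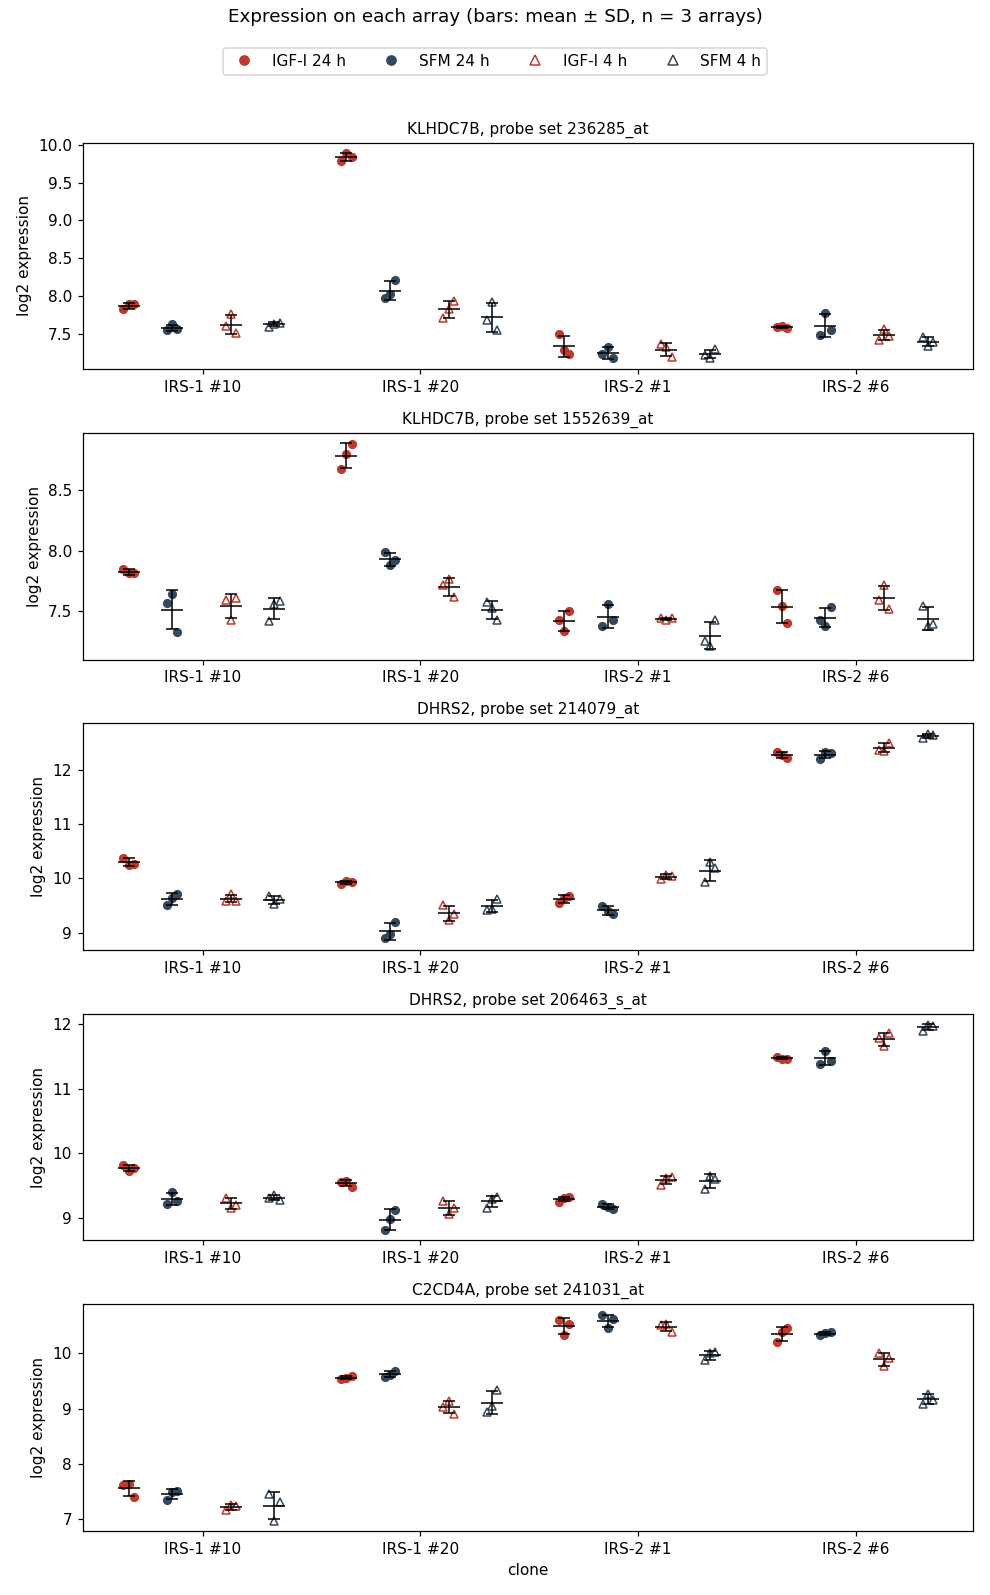
Log2 expression (vertical axis) of the 5 probe sets on each of the 48 arrays, grouped by clone along the horizontal axis; red is IGF-I and dark blue SFM, circles are 24 h and open triangles 4 h, and bars are the mean ± SD of 3 arrays. KLHDC7B stands out on the IGF-I 24 h arrays of IRS-1 #20 (9.79 to 9.89), DHRS2 is high in IRS-2 #6 under every condition, and C2CD4A is low in IRS-1 #10.

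A probe set was called where limma's adjusted p was under 0.05 and the difference at least 1.5-fold. Since the 3 genes were picked on their responses, the counts that follow describe the choice and no test is given. In IRS-1 clone #20 at 24 h, 3 of the 5 probe sets were called as higher with IGF-I, where 0.251% of all 54613 tested were called in either direction and 0.187% as higher. In IRS-1 clone #10 at 24 h 1 of 5 was called as higher (background 0.251%, 0.125% as higher), and in IRS-2 clone #6 at 4 h 1 of 5 (0.223%, 0.2% as higher). None was called in IRS-1 #10 at 4 h (0.0623%), IRS-1 #20 at 4 h (0.11%), IRS-2 #1 at 4 h (0.108%), IRS-2 #1 at 24 h (0.0476%) or IRS-2 #6 at 24 h (0.0787%). Of the 40 pairs of probe set and response, 14 had every IGF-I array above every SFM array, 2 had every IGF-I array below, and 24 overlapped. Over all probe sets the share with every IGF-I array above was 12% in #10, 12% in #20, 12.3% in #1 and 9.06% in #6 at 24 h, and 7.04%, 6.02%, 7.29% and 5.6% in the same clones at 4 h. The share with every IGF-I array below was 13.5%, 8.08%, 10.7% and 12.5% at 24 h, and 9.67%, 7.72%, 9.26% and 7.18% at 4 h.

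The mean response of the IRS-1 clones less that of the IRS-2 clones at 24 h was 1.00 for KLHDC7B 236285_at (mean response 1.03 in IRS-1 and 0.03 in IRS-2 clones, SE of the difference 0.082) and 0.69 for DHRS2 214079_at (0.79 in IRS-1 and 0.10 in IRS-2 clones, SE 0.073). For C2CD4A at 4 h it was -0.67 (-0.05 in IRS-1 and 0.61 in IRS-2 clones, SE 0.090). These are the differences the genes were picked for. Within an isoform, the response of clone #10 less that of clone #20 at 24 h was -1.48 for KLHDC7B 236285_at and -0.22 for DHRS2 214079_at, and the response of clone #1 less that of clone #6 at 4 h was -0.21 for C2CD4A. By 1552639_at of KLHDC7B the difference between isoforms was 0.56 and that between the IRS-1 clones -0.54. By 236285_at the gap of KLHDC7B between the 2 IRS-1 clones was therefore wider than that between isoforms. By 1552639_at it was of about the same size, and in both probe sets the large value came from clone #20. For DHRS2 214079_at the gap between the IRS-1 clones was narrower than that between isoforms, as was that between the IRS-2 clones (#1 minus #6 0.22 at 24 h). For C2CD4A the gap between the IRS-2 clones at 4 h was also narrower. These comparisons use the values the genes were picked on, so they describe the choice and test nothing. Between isoforms, 2 of 5 probe sets were called at 24 h (background 0.0586%) and 1 of 5 at 4 h (0.0293%), again as a description.

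**Figure D2:**
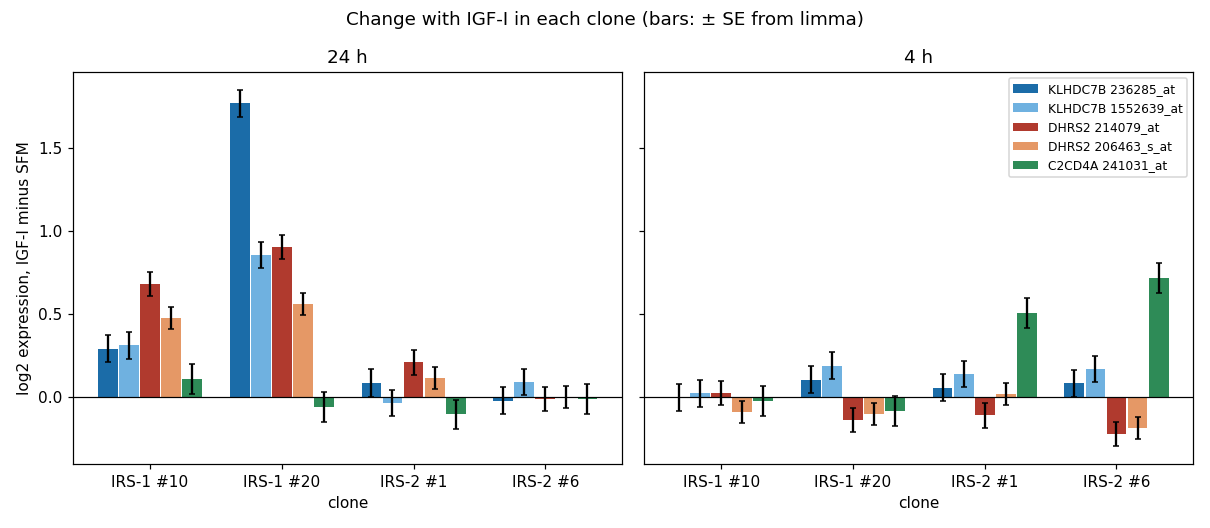
Log2 expression on IGF-I arrays minus that on SFM arrays (vertical axis) for each clone (horizontal axis) at 24 h (left) and 4 h (right); bars are the 5 probe sets and error bars ± SE from limma. KLHDC7B peaks in IRS-1 #20 at 24 h (1.77), DHRS2 in #10 and #20 at 24 h (0.68 and 0.90 by 214079_at), and C2CD4A in both IRS-2 clones at 4 h (0.51 and 0.72).

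The level in the absence of IGF-I was not what the genes were picked for, and it could be tested, although the same SFM arrays are the controls of the responses. On the SFM arrays of the time other than that of the picked response, which are not its controls, the IRS-1 clones less the IRS-2 clones gave -1.84 for DHRS2 214079_at at 4 h (limma adjusted p = 4.97e-32), -1.93 for C2CD4A at 24 h (3.98e-29) and 0.36 for KLHDC7B 236285_at at 4 h (9.63e-07, under 1.5-fold). The SFM tests between isoforms and clones that follow pool both times, except where a single time is named. They thus include controls of the picked responses, and their p-values are not independent of that choice. In SFM, DHRS2 and C2CD4A were lower in the IRS-1 clones than in the IRS-2 clones, and in each case 1 clone accounted for much of the gap. In all, 3 of the 5 probe sets were called between isoforms, every time as lower in IRS-1 (6.37% of all probe sets were called in either direction and 2.51% as lower). The error of these tests is the spread between arrays, so that with 2 clones per isoform a difference between isoforms and a difference between clones cannot be told apart.

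DHRS2 was by far highest in IRS-2 clone #6. Over the 6 SFM arrays of a clone, 214079_at averaged 9.61 ± 0.083 (SD) in #10 and 9.26 ± 0.286 in #20, the IRS-1 clones, and 9.78 ± 0.422 in #1 and 12.46 ± 0.197 in #6, the IRS-2 clones. The arrays of #6 (12.20 to 12.66) lay above every array of the other 3 clones (8.89 to 10.30). The IRS-1 clones were lower than the IRS-2 clones (difference -1.68, SE 0.037, 3.21-fold, limma adjusted p = 3.53e-37), but without clone #6 the difference was -0.34 (1.27-fold, adjusted p = 6.37e-09) and was not called. Clone #1 was below clone #6 by 6.42-fold (difference -2.68, adjusted p = 1.77e-38). Among the other clones, #10 and #1 differed by -0.17 (95% interval -0.27 to -0.06, adjusted p = 0.00575), and #20 was below #1 by 1.43-fold (difference -0.52). Probe set 206463_s_at gave the same order at the top, with 11.71 ± 0.274 in #6 and 9.11 to 9.37 in the other clones, and a difference between isoforms of -1.34, or -0.16 without #6.

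C2CD4A differed most in IRS-1 clone #10. Its SFM level was 7.35 ± 0.200 in #10 and 9.36 ± 0.311 in #20, both IRS-1, and 10.27 ± 0.351 in #1 and 9.76 ± 0.651 in #6, both IRS-2 (SD, 6 arrays each). The arrays of #10 (6.98 to 7.51) lay below every array of the other clones (8.93 to 10.68), while #20 (8.93 to 9.68) overlapped with #6 (9.09 to 10.38). The IRS-1 clones were lower than the IRS-2 clones by 3.16-fold (difference -1.66, SE 0.045, limma adjusted p = 3.06e-33), and by 1.58-fold without #10 (-0.66, adjusted p = 2.17e-14), which was still called. Clone #10 was below clone #20 by 4.03-fold (difference -2.01, adjusted p = 5.63e-30), a wider gap than that between isoforms. Clone #20 was below #1 by 1.88-fold (-0.91, adjusted p = 4.80e-17) and below #6 by 1.32-fold (-0.40, adjusted p = 7.15e-07), and #1 was above #6 by 1.43-fold (0.51, adjusted p = 1.05e-08).

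KLHDC7B varied less, at levels close to the array medians (7.39 to 7.51), so that its small differences may lie near background. In SFM, 236285_at averaged 7.60 ± 0.040 in #10, 7.90 ± 0.242 in #20, 7.24 ± 0.062 in #1 and 7.50 ± 0.154 in #6 (SD, 6 arrays each). The IRS-1 clones stood 0.38 above the IRS-2 clones (SE 0.041, 1.30-fold, limma adjusted p = 3.26e-11), under the fold needed for a call. In the order of levels, #20 was above #10 (#10 minus #20 -0.29, adjusted p = 4.85e-05), #10 and #6 did not differ beyond their spread (0.10, 95% interval -0.02 to 0.22, adjusted p = 0.143), and #1 was below #6 (-0.26, adjusted p = 0.000524). The only pair called was #20 over #1, at 1.57-fold (0.65, adjusted p = 1.22e-13), and by 1552639_at that pair differed by 0.34, under 1.5-fold. The mean levels of KLHDC7B lay at the 53.81st and 55.64th percentile of all probe sets, of DHRS2 at the 85.92nd and 89.67th and of C2CD4A at the 79.09th, and the signal over background behind them is unknown.

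Of the 5 probe sets, the comparison of #10 with #20 called 1 (background 3.37%), #1 with #6 called 2 (1.07%), #10 with #1 called 1 (8.49%), #10 with #6 called 3 (8.75%), #20 with #1 called 2 (7.75%) and #20 with #6 called 2 (6.39%). Both pairs within an isoform thus held called members, C2CD4A between the IRS-1 clones and DHRS2 between the IRS-2 clones.

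**Figure D3:**
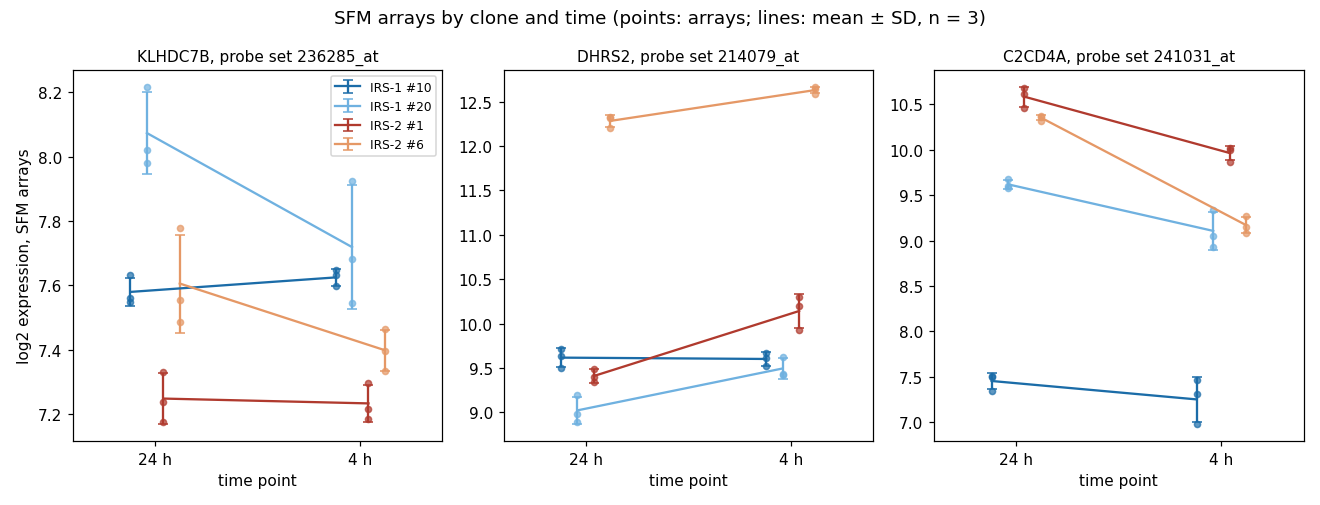
Log2 expression on SFM arrays (vertical axis) at 24 h and 4 h (horizontal axis) for 1 probe set of each gene; points are arrays, lines join the means ± SD of 3 arrays, blue clones are IRS-1 and red or orange clones IRS-2. DHRS2 is highest in IRS-2 #6 at both times, C2CD4A is lowest in IRS-1 #10, and C2CD4A of IRS-2 #6 is 1.18 higher at 24 h than at 4 h.

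Without IGF-I, the levels at 24 h also differed from those at 4 h. The SFM arrays of either time are the controls of the responses for which the genes were picked, so these changes are a description and no p is given. C2CD4A was higher at 24 h than at 4 h by 0.62 in #1 (SE 0.090, 1.54-fold) and by 1.18 in #6 (SE 0.090, 2.27-fold), both IRS-2 clones. In #6 the SFM arrays read 10.32, 10.36 and 10.38 at 24 h, against 9.09, 9.27 and 9.15 at 4 h. The gap between 24 h and 4 h in SFM in #6 was thus larger than the 0.72 by which IGF-I arrays exceeded SFM arrays at 4 h. In #1 the SFM arrays read 10.68, 10.46 and 10.61 at 24 h, against 9.87, 10.00 and 10.02 at 4 h, and without the arrays of letter A the difference was 0.53, under 1.5-fold. In the IRS-1 clones C2CD4A was higher at 24 h by 0.51 in #20 (1.43-fold) and by 0.20 in #10 (SE 0.090 in each).

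DHRS2 went the other way. By 214079_at it was lower at 24 h in IRS-2 #1, at 9.49, 9.40 and 9.34, against 9.93, 10.30 and 10.20 at 4 h, a difference of -0.73 (SE 0.073, 1.66-fold). By 206463_s_at the difference in #1 was -0.39, under 1.5-fold. In the other clones 214079_at differed by -0.47 in #20, -0.35 in #6 and 0.01 in #10, all under 1.5-fold. On the IGF-I arrays of #20, DHRS2 stood at 9.90, 9.95 and 9.93 at 24 h, against 9.51, 9.24 and 9.34 at 4 h, so that with IGF-I the 24 h arrays were the higher ones. KLHDC7B 236285_at was higher at 24 h in SFM by 0.35 in #20 (1.28-fold), with 0.21 in #6, 0.02 in #1 and -0.04 in #10 (SE 0.082 in each). In all, 2 of 5 probe sets were called in #1 (background 0.229%), 1 of 5 in #6 (0.482%), and none in #10 (0.022%) or #20 (0.699%). In none of the 5 was the change called as different between isoforms (background 0.229%), between the IRS-1 clones (0.844%) or between the IRS-2 clones (0.117%). The called changes in SFM, again a description, ran in opposite directions for C2CD4A (#1 and #6) and DHRS2 (#1, by 214079_at alone).

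When the sum of squares over the 48 arrays was divided by the factors of the design, clone took 94.52% and 95.76% for the DHRS2 probe sets and 92.63% for C2CD4A, against a median of 42.37% over 48855 probe sets with a mean log2 level of at least 5. IGF-I and its interactions with clone and time together took small shares of these, 0.48% and 2.46% for DHRS2 214079_at and 0.31% and 1.47% for C2CD4A. KLHDC7B was built differently: for 236285_at clone took 45.18%, time 9.38%, clone by time 15.57%, IGF-I 6.1% and its interactions 21.97%. The spread between arrays of a group took 0.42% to 4.93% in the 5 probe sets, against a median of 28.28%.

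**Figure D4:**
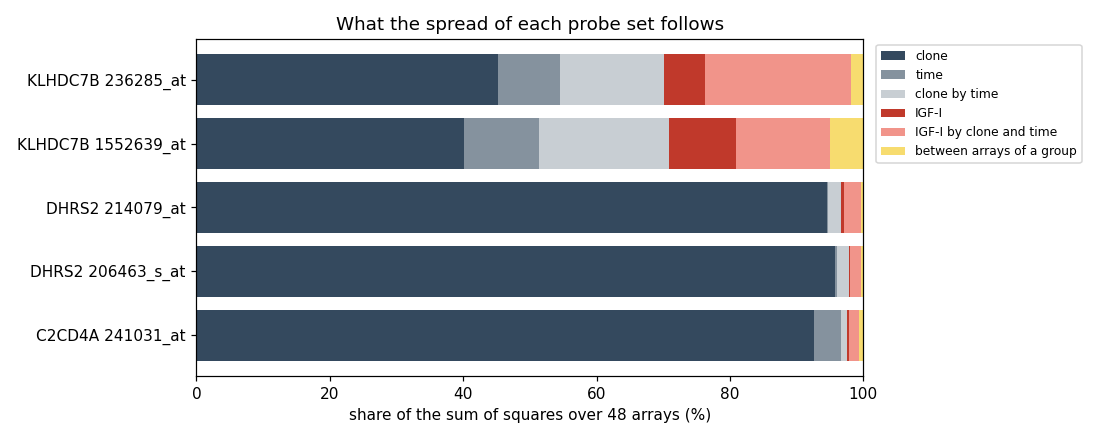
Share of the sum of squares over 48 arrays, in percent (horizontal axis), for each of the 5 probe sets (rows), divided into clone, time, clone by time, IGF-I, the interactions of IGF-I with clone and time, and the spread between arrays of a group. DHRS2 and C2CD4A follow clone for over 92.6%, whereas in KLHDC7B 236285_at the interactions of IGF-I take 21.97%. The IGF-I and interaction shares come from the responses the genes were picked on.

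No relative of the 3 genes was called in a response. Each response called 0.0476% to 0.251% of all probe sets in either direction, so none among so few genes is close to that share. The SFM comparison of isoforms called 6.37%, and these shares also stand beside the counts of the lists below. Of the other kelch domain-containing (KLHDC) genes 9 were measured, of the other DHRS dehydrogenases 11 and of the other C2CD genes 6, and none was called in any of the 8 responses, with values from -0.58 to 0.23 for KLHDC, -0.32 to 0.28 for DHRS and -0.29 to 0.23 for C2CD genes. In SFM, DHRS3, a retinal reductase, was higher in the IRS-1 clones by 0.73 (limma adjusted p = 4.48e-22) and BDH2, a cytosolic hydroxybutyrate dehydrogenase, lower by 0.71 (difference -0.71, adjusted p = 3.09e-24). No KLHDC or C2CD gene was called between isoforms in SFM. The C2CD4B probe sets averaged 4.48 and 6.92 over the 48 arrays. Among 12 other carbonyl and dicarbonyl reductases, AKR1C3, an aldo-keto reductase of steroids and prostaglandins, fell with IGF-I in IRS-1 #10 at 24 h (-0.60, adjusted p = 3.19e-05) and was the only one called in a response. Its SFM level was 3.00 higher in #10 than in #20 (adjusted p = 4.98e-35), so it also set the 2 IRS-1 clones apart.

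Of 16 measured genes of p53, MDM2 and p53 targets, 3 were called as higher with IGF-I in IRS-1 #20 at 24 h, with a list median of 0.13 against 0.01 over all genes. GDF15, a secreted stress cytokine, rose by 2.46 in IRS-1 #20 at 24 h (limma adjusted p = 9.86e-29) and by 0.63 in IRS-2 #6 at 4 h (adjusted p = 9.34e-08), and FAS, a death receptor, by 0.63 in IRS-1 #20 at 24 h (adjusted p = 6.20e-09). The third was the stress-induced SESN2 (0.61), named, like TP53INP1 and HERC5, after its value was seen. In IRS-1 #10 at 24 h, where DHRS2 was also higher with IGF-I, 1 gene of this list was called, TP53INP1, as lower (-0.60). The list median there was 0.05. Under 1.5-fold, GDF15 was higher there by 0.45 (limma adjusted p = 5.02e-05) and FAS by 0.43 (1.81e-05). FAS was also higher at 24 h in #1 (0.395, 0.000238) and #6 (0.30, 0.00678), so its rise was not particular to #20. GDF15 differed by 0.03 in #1 and 0.05 in #6 at 24 h, and by 0.46 in #20 at 4 h (0.000148). None of the 11 histone deacetylase genes was called in a response (-0.46 to 0.45), and HDAC11 was lower in IRS-1 than in IRS-2 clones in SFM (-0.69, adjusted p = 2.19e-24).

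Of 27 measured cytokine-induced NF-kB genes, 1 was called at 4 h in every clone. It was the monocyte chemoattractant CCL2, higher with IGF-I by 0.64 in #10, 0.98 in #20, 0.93 in #1 and 1.34 in #6 (limma adjusted p from 1.36e-07 to 2.21e-18), and so in both isoforms, unlike C2CD4A at that time. At 24 h it was called in #10 (0.66). CCL20, another chemokine, fell in IRS-2 #6 at 24 h (-1.01, adjusted p = 7.54e-07). The list's median at 4 h was -0.05 in #10, 0.04 in #20, 0.02 in #1 and 0.09 in #6, against -0.02 to -0.01 over all genes.

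Interferon-stimulated genes also set the clones apart in SFM. Of 37 measured, 27 were called as higher in the IRS-1 than in the IRS-2 clones and none as lower, with a median difference of 1.29 against -0.04 over all genes, and the antiviral genes IFI44L and IFI44 differed by 4.52 and 4.11. Their mean SFM level was 10.86 in #10, 10.88 in #20, 8.99 in #1 and 10.32 in #6 at 24 h, and 10.74, 10.42, 8.73 and 9.49 in the same clones at 4 h. Between 24 h and 4 h in SFM, 26 of them were called as higher at 24 h in #6, 15 in #20, 4 in #1 and none in #10. The shares of all probe sets called there in either direction were 0.482%, 0.699%, 0.229% and 0.022% in the same order. KLHDC7B and these genes thus shared their lowest clone, #1, in SFM. In the responses of IRS-1 #20 at 24 h, where KLHDC7B was higher by 1.77, 1 of the 37 was called as higher (HERC5, 0.62), with a median of 0.29 against 0.01 over all genes. In #10 at 24 h, where KLHDC7B was higher by only 0.29, the list median was 0.25 and 2 were called as higher. In the IRS-2 clones at 24 h the list median was -0.105 in #1 and 0.046 in #6. The largest response of the list was that of GBP1, an interferon-induced GTPase, called as higher at 4 h in every clone (0.64 in #10, 2.17 in #20, 2.06 in #1 and 2.33 in #6) and at 24 h in #10 (0.62). In IRS-2 #6 at 4 h, where C2CD4A was also higher, IFIT2 (0.63) and IFIT3 (0.62) were called too, and in #10 at 24 h RSAD2 (0.63). In IRS-2 #1 at 4 h, where C2CD4A was higher by 0.51, GBP1 alone was called. The list median there was -0.096, against 0.128 in #6 at 4 h. GBP1, IFIT2 and IFIT3 were named after their values were seen. The part of the interferon-stimulated genes in the levels of the 3 genes was not tested.

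No gene beside them on the chromosome was called in a response, which is close to the share of all probe sets called (0.0476% to 0.251% per response). Taking the 3 nearest genes on each side that have a probe set of a single symbol, 18 in all, none was called in any of the 8 responses, and their differences ranged from -0.39 to 0.31. None was called in SFM between isoforms (-0.41 to 0.39, background 6.37%) or between 24 h and 4 h (background 0.022% to 0.699% per clone). They include TYMP and SCO2 beside KLHDC7B, DHRS4-AS1 and AP1G2 beside DHRS2, and VPS13C and C2CD4B beside C2CD4A. Pairs of clones in SFM called 1.07% to 8.75% of all probe sets. Of the neighbours 3 were called, each in a single pair: SCO2 in #10 against #1 (-0.61), DHRS4-AS1 in #20 against #1 (-0.61) and TLN2 in #10 against #6 (-0.68).

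Across the 8 responses (clone and time), the genes most like each of the 3 were found by Pearson's r among 177 genes called in at least 1 response. These correlations are descriptions over 8 points that share their SFM arrays within a clone and time. KLHDC7B, DHRS2 and C2CD4A were picked on these responses, and the 177 genes were called in them. A peak shared with the most alike genes thus follows from the choice and tests nothing. KLHDC7B was most like the seryl-tRNA synthetase SARS1 (r = 0.996), the inhibin subunit INHBE (0.990), the pseudokinase TRIB3 (0.982), the unfolded-protein sensor ERN1 (0.980) and the chaperone CLGN (0.977). In IRS-1 #20 at 24 h these stood higher with IGF-I by 0.65 (SARS1), 3.39 (INHBE), 1.15 (TRIB3), 0.90 (ERN1) and 1.13 (CLGN), and that single point set them apart, since by Spearman's rho CLGN had only 0.286 and of the 5 only TRIB3 stayed among the 5 most alike (0.929). DHRS2 was most like PSAT1 of serine synthesis (r = 0.986), the mitochondrial folate enzyme MTHFD2 (0.971), the tyrosyl-tRNA synthetase YARS1 (0.947), the peroxidase GPX8 (0.939) and the polyamine enzyme ODC1 (0.938). PSAT1 stood at 0.95 in #10 and 1.21 in #20 at 24 h, against 0.34 in #1 and 0.27 in #6, and it alone of these stayed among the 5 most alike by Spearman's rho (0.976). Of the 5 genes most like C2CD4A, those ranked 2 to 5 are given here: the MAP kinase phosphatases DUSP4 (r = 0.918), DUSP1 (0.916) and DUSP10 (0.915), and the transcription factor KLF4 (0.894). KLF4 read 0.08 in #10, 0.00 in #20, 0.48 in #1 and 0.72 in #6 at 4 h, whereas DUSP4 was above 0.29 in all 8 responses. None of these 4 stayed among the 5 most alike by Spearman's rho.

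**Figure D5:**
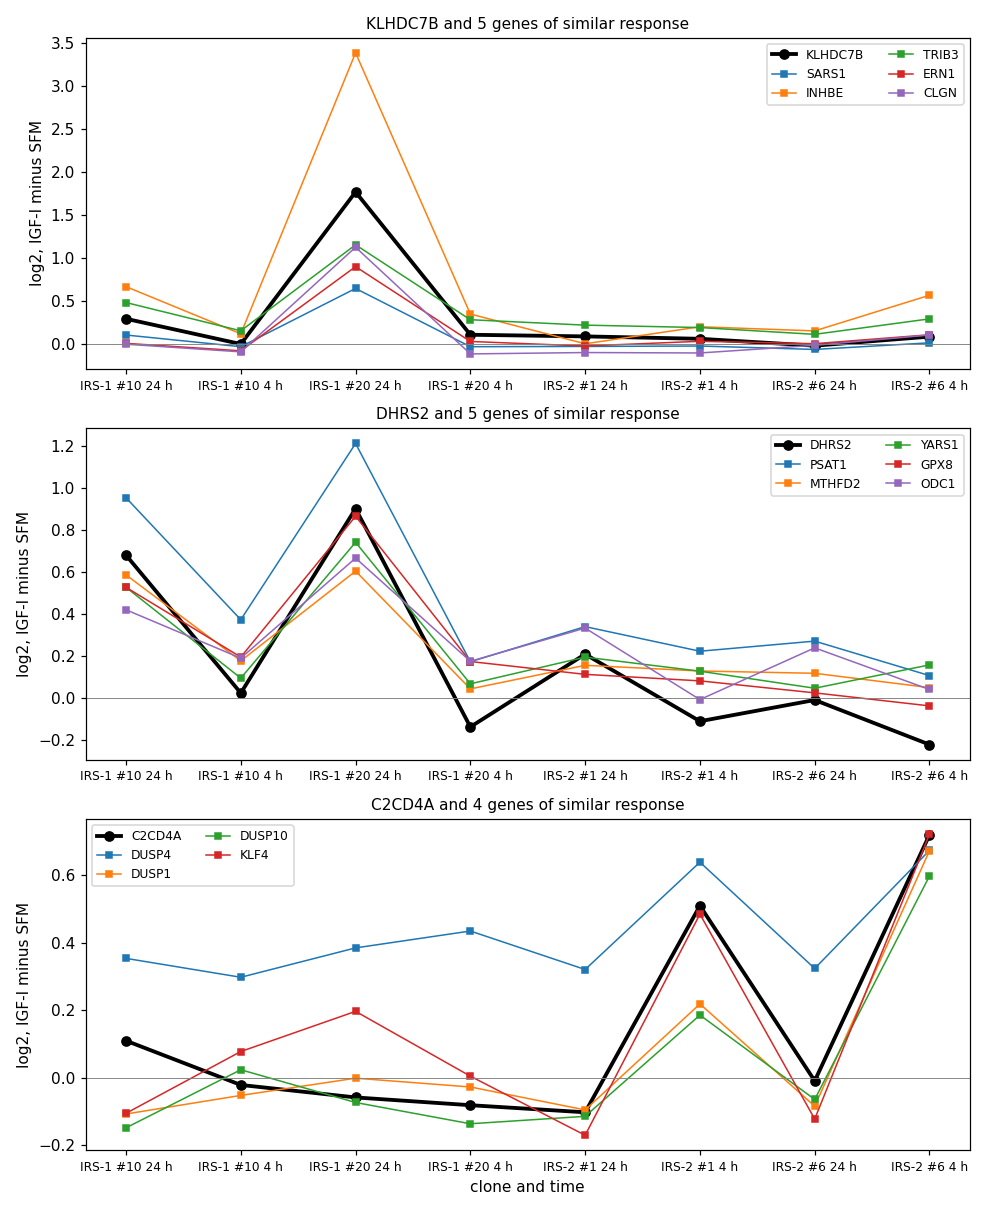
Log2 expression on IGF-I arrays minus SFM arrays (vertical axis) in the 8 combinations of clone and time (horizontal axis) for KLHDC7B, DHRS2 and C2CD4A (black) and genes among the 5 of highest Pearson's r with each (colors; 5 for KLHDC7B and DHRS2, 4 for C2CD4A). KLHDC7B and its 5 genes share the peak in IRS-1 #20 at 24 h (INHBE 3.39), and C2CD4A and KLF4 share the values of the IRS-2 clones at 4 h (0.72 in #6 for both). The black genes were picked on these responses and the colored ones for likeness to them, so shared values follow from the choice.

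Over the 8 SFM group means, among 2750 genes called between isoforms or clones, KLHDC7B was most like the interferon-induced receptor transporter RTP4 (r = 0.978), EVL (0.954) and DGLUCY (0.937). DHRS2 was most like the serine protease TMPRSS3 (0.965), FAS (0.960) and the activin-binding protein FST (0.948), and C2CD4A like the ceramidase ACER1 (0.991), CDC42EP1 (0.990) and the helix-loop-helix inhibitor ID3 (0.987). The DHRS2 likeness rested on clone #6, since by Spearman's rho TMPRSS3 had 0.786, FAS 0.738 and FST 0.595, whereas RTP4 (0.976) and ACER1 (1.000) kept their values.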

How the data were processed

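Each of 48 RNA samples was measured on its own Affymetrix HG-U133 Plus 2.0 array. According to the methods, the authors ran GC-RMA within GeneData Refiner (GCRMA, with no version, in the submitters' notes). The log2 values were deposited by the authors after normalization between arrays, are not relative to the untreated state although the methods describe that step, and carry no background values, so signal over background is unknown and the number of arrays limits precision. Here 62 Affymetrix controls were left out and 54613 probe sets fitted in limma 3.58.1 (R 4.3.3) with 16 group means, trended empirical Bayes variances and 32 residual degrees of freedom, and p-values were Benjamini-Hochberg adjusted over all of them within each contrast. Calls needed an adjusted p under 0.05 and at least 1.5-fold. No dim filter was used.

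Genes were named from the platform annotation (41091 tested probe sets with a single symbol, 1801 with several), and a gene in a list was represented by its probe set of highest mean. Of 149 list genes 132 were measured. Named genes were those called in a response or between isoforms in SFM, at most 4 per list by size, the neighbours, and the genes of highest Pearson's r, of which 1 is not reported here. The 3 genes and the lists were chosen with earlier results of these data known. Alternatives were dropping probe sets that reached a log2 of 5 on fewer than 3 arrays, quantile normalization, centring on medians, fits limited to the compared arrays, untrended variances, thresholds of 2-fold or none, linear means, averaged probe sets per gene, SFM arrays of a single time, Spearman's rho for likeness, the replicate letter as a block and each letter left out. Leaving out a clone and testing differences in the change between 24 h and 4 h were added after seeing the data. The scripts were tested on simulated data. Neighbours were taken from the GRCh38.p14 gene order. Python 3.11.15, numpy 2.4.6, pandas 2.3.3, scipy 1.17.1 and matplotlib 3.10.9 were used.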

Additional observations from a re-analysis of the deposited data

Results flagged for a closer look

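The change in SFM between 24 h and 4 h differed between clones or isoforms for all 3 genes at an adjusted p under 0.05 by limma's test of the difference itself, a comparison added after seeing the data, and all values were under 1.5-fold. The SFM arrays are the controls of the responses for which the genes were picked, so the values are a description and support nothing. For KLHDC7B (236285_at) the change in IRS-1 #10 less that in IRS-1 #20 was -0.399 (SE 0.116), with -0.04 in #10 and 0.35 in #20. For DHRS2 (214079_at) the mean change of the IRS-1 clones less that of the IRS-2 clones was 0.312 (SE 0.073), and the change in #10 less that in #20 was 0.487 (SE 0.104). For C2CD4A the change of the IRS-1 clones less that of the IRS-2 clones was -0.545 (SE 0.090), and the change in IRS-2 #1 less that in IRS-2 #6 was -0.563 (SE 0.128). Of the 5 probe sets 0 were called with the fold threshold, where 0.229% of all probe sets were called between isoforms, 0.844% between the IRS-1 clones and 0.117% between the IRS-2 clones. The groups hold 3 arrays each and were not screened for outlying arrays.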

How the results depend on the processing

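Between alternatives, no direction of a called value turned. Counts of probe sets depended on the fold threshold. With 2-fold, counts were 977 (of 3478) for IRS-1 minus IRS-2 in SFM, 473 for #10 minus #20, 137 for #1 minus #6, 1386 for #10 minus #1, 1451 for #10 minus #6, 1226 for #20 minus #1 and 934 for #20 minus #6. For 24 h minus 4 h in SFM they were 5 in #10, 23 in #20, 17 in #1 and 51 in #6. For IGF-I minus SFM at 4 h they were 3, 10, 10 and 18 and at 24 h 6, 19, 0 and 4 in #10, #20, #1 and #6. For the difference of response between isoforms they were 2 at 4 h and 6 at 24 h, and for the difference in time change 8 between isoforms, 14 between the IRS-1 clones and 5 between the IRS-2 clones. With no fold threshold, in the same order, they were 34177, 17372, 10541, 29185, 29916, 28205 and 27604 in SFM, 1001, 11364, 2910 and 6983 for 24 h minus 4 h, 991, 1684, 887 and 1281 for IGF-I at 4 h, 4375, 3930, 1723 and 2098 at 24 h, 142 and 260 for the response difference, and 1357, 9825 and 276 for the time change. Median centring gave 740 (of 461) for the time change between the IRS-1 clones, and variances without trend 82 (of 125) for that between isoforms. The cause was not tested.

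For the 3 genes, at 2-fold the values 0.65 (KLHDC7B, #20 minus #1), -0.73 (DHRS2, 24 h minus 4 h in #1), -0.91 (C2CD4A, #20 minus #1) and 0.62 (C2CD4A, 24 h minus 4 h in #1) lost their calls. With no fold threshold calls were gained for KLHDC7B at 0.38 (isoforms), -0.29 (#10 minus #20), -0.26 (#1 minus #6), 0.36 (#10 minus #1), 0.39 (#20 minus #6), 0.35 (24 h minus 4 h in #20) and -0.40 (time change, #10 minus #20), for DHRS2 at 0.35 (#10 minus #20), -0.17 (#10 minus #1), -0.52 (#20 minus #1), -0.47 and -0.35 (24 h minus 4 h in #20 and #6), 0.31 and 0.49 (time change between isoforms and IRS-1 clones), and for C2CD4A at 0.51 (#1 minus #6), -0.40 (#20 minus #6), 0.51 (24 h minus 4 h in #20), -0.54 and -0.56 (time change between isoforms and IRS-2 clones). Without clone #6 the DHRS2 difference between isoforms was -0.34. With SFM arrays of 4 h only, KLHDC7B #20 minus #1 was 0.48 (call lost), DHRS2 #20 minus #1 -0.65 and C2CD4A #1 minus #6 0.79 (calls gained), and with those of 24 h only DHRS2 #10 minus #20 was 0.59 and C2CD4A #20 minus #6 -0.73 (calls gained). Quantile normalization gave 0.61 for C2CD4A between 24 h and 4 h in #20, and median centring -0.62 for its time change between the IRS-2 clones (both gained). With probe sets averaged per gene, KLHDC7B #20 minus #1 was 0.50 and DHRS2 24 h minus 4 h in #1 -0.56 (calls lost), and the responses at 24 h were 1.31 for KLHDC7B in #20 (0.78 for the difference between isoforms) and 0.58 and 0.73 for DHRS2 in #10 and #20 (0.58 between isoforms).

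Leaving out each letter in turn gave counts of 9 to 72, 248 to 698 in #10 and #20 for 24 h minus 4 h, 63 to 136 and 58 to 96 in #20 and #1 for IGF-I at 4 h, 123 to 216, 24 to 50 and 34 to 94 in #10, #1 and #6 at 24 h, and 47 to 192 and 274 to 1169 for the time change between isoforms and between the IRS-1 clones. For C2CD4A it gave -0.18 to 0.11 and -0.17 to 0.089 for IGF-I at 4 h in #10 and #20, -0.83 to -0.57 for the response difference at 4 h, 0.53 to 0.70 and 0.44 to 0.60 for 24 h minus 4 h in #1 and #20, and -0.69 to -0.44 for the time change between isoforms. For DHRS2 it gave -0.25 to -0.059 in #20 at 4 h, 0.58 to 0.75 in #10 at 24 h, and -0.60 to -0.45 for #20 minus #1. For KLHDC7B it gave -0.034 to 0.21 in #20 at 4 h. What the arrays of a letter A to C share is not known. In none of the 8 comparisons were all 3 correlations of same-lettered IGF-I and SFM arrays over 0.1 (-0.47 to 0.31 in all). With 3 arrays per group this cannot decide if a letter marks shared handling. With the letter as a block, counts stayed within 2 of the others (3478 between isoforms in SFM, 33 in #10 at 4 h) and no call on the 3 genes changed.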
